A study of Drosophila melanogaster with 3 samples.

Results

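The olfactory and gustatory receptor genes of Drosophila melanogaster were examined for binding of the homeodomain protein achi. The genes were taken by name: every protein-coding gene called Or or Gr followed by digits and a letter, and Orco. This gave 120 of 13945 protein-coding genes on 6 chromosome arms, 60 in the Or family with Orco and 60 in the Gr family. They lay on 2L (27 genes), 2R (28), 3L (22), 3R (29) and X (14), with none on chromosome 4. Chromatin immunoprecipitation followed by sequencing had been done on whole prepupae, the stage at which adult organs start to be built from larval precursors. All animals carried a transgene for achi with GFP at its C-terminus, males and females were pooled, and their age is given as unknown. The chromatin was precipitated with an antibody against GFP, although another label names achi as the target. There was 1 group with 3 biological replicates and no comparison group, so the receptor genes were compared with other genes of the same lists and no test between samples was possible.

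Odorant receptors are membrane proteins of olfactory sensory neurons, where each neuron usually expresses a particular tuning receptor together with the coreceptor Orco as an ion channel. Gustatory receptors are related channels of taste neurons for sugars, bitter compounds and contact pheromones, and a few of them sense carbon dioxide, warmth or internal sugar. Both kinds are known mainly from small sets of neurons in the antenna, palps, labellum, legs and larval head, which make up little of a whole prepupa. In whole animals, binding in few cells and weak binding in many cells cannot be told apart.

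The authors' optimal list held 8998 peaks, and the pooled list and each replicate list held 30000 regions that include background. The optimal peaks were the 8998 regions of the pooled list with the highest signal, so a rank has the same meaning in both lists. Each peak has a summit, the position of its highest signal. A gene counted as bound at its promoter if any of its transcription start sites (TSSs) had a summit no farther than 500 bp away. The read depth behind the lists cannot be seen in them. Regions with a q-value up to 0.01 numbered 9744, 10649 and 10283 in replicates 1, 2 and 3.

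The only receptor gene with an optimal summit at its promoter was Gr77a, a gustatory receptor gene. The sequence under its summit is shown because it is the only receptor promoter peak past the authors' threshold. It covers 100 bases either side of the summit, chr3L:20739592-20739792 of dm6, on the minus strand, which is that of Gr77a, from the RefSeq genome. Here and below, capitals mark the searched words: TGACAG, then the TATA box word TATAAA, and the element TATCGATA, or the complement of one. This stretch holds none.
Gr77a peak: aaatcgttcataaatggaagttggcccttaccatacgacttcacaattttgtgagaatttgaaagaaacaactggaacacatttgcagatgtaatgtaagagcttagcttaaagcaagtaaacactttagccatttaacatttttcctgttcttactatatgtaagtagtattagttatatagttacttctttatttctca

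Or67a and Gr93a had the best ranked summits among receptor promoters below the threshold, and their promoters are given for that reason. Both are RefSeq dm6 sequence from 150 bases before the gene start to the first 50 bases of the gene, on the plus strand, chr3L:9528917-9529116 and chr3R:21832353-21832552. In Or67a, capitals mark TTTATA, the complement of TATAAA, and CTGTCA, the complement of TGACAG. The summit of its best region lay 45 bp downstream of the TSS, in the first exon. TGACAG is the textbook core site of TGIF-class homeodomains such as achi. Gr93a, whose product is needed with other receptors for the taste response to caffeine, held none of the searched words in this window.
Or67a: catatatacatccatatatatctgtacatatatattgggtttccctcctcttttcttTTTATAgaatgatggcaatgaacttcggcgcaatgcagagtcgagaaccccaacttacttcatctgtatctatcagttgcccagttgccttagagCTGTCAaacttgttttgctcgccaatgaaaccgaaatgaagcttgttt
Gr93a: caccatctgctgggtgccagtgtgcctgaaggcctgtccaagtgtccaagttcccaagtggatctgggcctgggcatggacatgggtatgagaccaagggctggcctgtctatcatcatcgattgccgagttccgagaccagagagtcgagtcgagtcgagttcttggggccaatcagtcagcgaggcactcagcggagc

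Promoters of receptor genes were almost free of achi-GFP peaks. Of the 120 genes, 1 had an optimal summit at a promoter (0.833%, Wilson 95% interval 0.147% to 4.57%), against 3234 of all 13945 protein-coding genes (23.2%). It belonged to the Gr family, and no Or gene had one. The 8998 strongest regions of each replicate's own list, called its top list here, gave 1 receptor in each of replicates 1, 2 and 3, where all genes gave 26.6%, 23.9% and 22.6%. This was Gr77a in all 3 replicates. No receptor gene had an optimal summit between the start and the end of the gene (0 of 120, which allows a share of up to 2.5%), against 16.3% of all genes. The top lists of replicates 1, 2 and 3 also gave 0 receptor gene bodies, against 17.0%, 16.5% and 16.3% of all genes.

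The longer pooled list added few receptor genes. A pooled summit lay at the promoter of 8 receptors (6.67%, 4 Or and 4 Gr genes) against 38.6% of all genes, and in the body of 9 (7.5%, 5 Or and 4 Gr genes) against 28.5%. Of the genes with a pooled promoter summit, 60.1% had one strong enough for the optimal list, whereas among the 8 receptors 1 did. The best pooled promoter rank had a median of 19611 in those 8 receptors and 6649 in the 5377 genes with such a summit. In the replicates' own lists of 30000 regions, 5, 10 and 10 receptors had a promoter summit in replicates 1, 2 and 3 (4.17%, 8.33% and 8.33%), against 43.4%, 40.7% and 38.7% of all genes. In all, 16 receptors had one in at least 1 replicate and 7 in at least 2, and Gr77a and Or67a had one in all 3. Shares over all genes were not computed for these criteria, so these counts cannot be called high or low.

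Receptor genes are short and have few start sites, which gives a summit less room. They measured 1143 to 7422 bp with a median of 1445 bp, against 2166 bp for all genes, and 110 of the 120 had a single TSS, as did 73.5% of all genes. Among the 6105 protein-coding genes with 1 TSS and a length in the same range, 19.7% had an optimal summit at the promoter and 4.95% in the body. In the pooled list these shares were 32.0% and 14.6%. The receptor counts therefore lay below this class as well as below all genes in each of the 4 measures. The class shares the length range but not the typical length of the receptors. Its median was 2154 bp, so the comparison does not fully account for length, above all in the gene body.

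The placement of the start sites limits these counts. In 83 of the 120 receptor gene models (69.2%, 43 Or and 40 Gr genes) the gene began at its first coding base, so no transcribed leader is annotated and the position of the true TSS is not given. This held for 515 of all 13945 models (3.69%). Those 515 models, receptors included, had an optimal promoter summit in 2.33% and a pooled one in 9.51% of cases. Models that began before the first coding base had them in 24.0% and 39.7%. Of the 37 receptors of that second kind, 0 had an optimal and 3 a pooled promoter summit, and of the other 83, 1 and 5 had one. The 432 models of other genes that began at the first coding base had an optimal promoter summit in 11 cases (2.55%). Whether missing leaders contribute to the low counts was not tested. This comparison was chosen after the data had been seen.

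**Figure D1:**
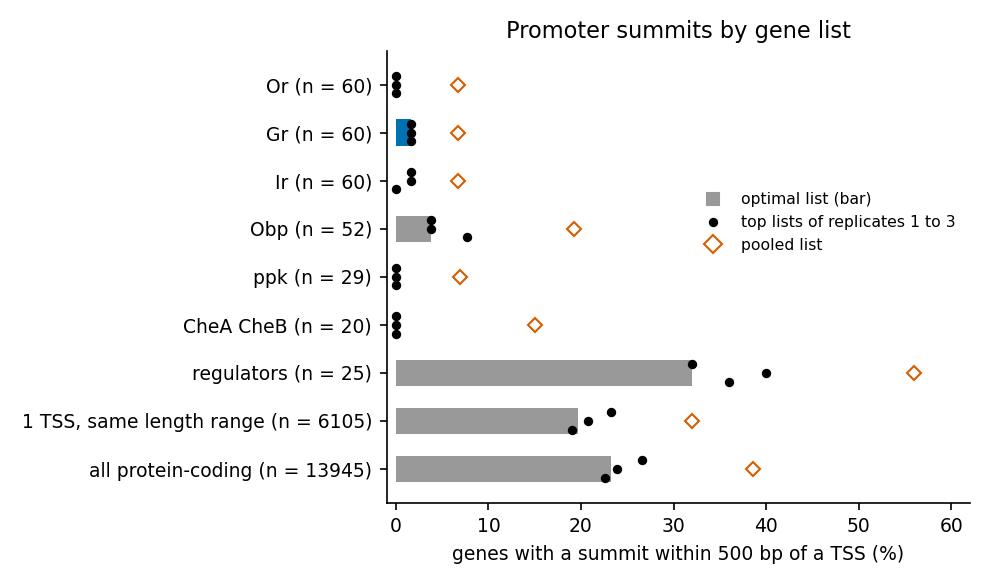
Share of genes with a summit within 500 bp of a TSS (percent, horizontal axis) for the Or and Gr families (blue bars), other gene lists and all protein-coding genes (grey bars); bars are the optimal list, black points the top lists of replicates 1 to 3, and open diamonds the pooled list. The Or bar is at 0 and the Gr bar at 1.67%, against 23.2% for all protein-coding genes.

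Gr77a (FBgn0045474, 3L, 20737569 to 20739430, dm6, minus strand) lay entirely inside CG13252, a gene of the plus strand at 20730591 to 20744508. Its summit at 20739692 was 262 bp upstream of the only annotated TSS of Gr77a, in an intron of CG13252 and 9101 bp from the CG13252 TSS. The region ran from 20739477 to 20739906. It ranked 6407 in the pooled list with a signal of 169 and a -log10 q of 4.15, the largest value among the optimal peaks. In replicates 1, 2 and 3 the region covering this summit ranked 6350, 7620 and 6228, with signals of 61.1, 47.6 and 62.4. All 3 ranks were inside the top lists, in their weaker part. Because the summit lies in an intron of the host gene, the peak cannot be assigned to Gr77a rather than CG13252. The Gr77a model begins at its first coding base.

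**Figure D2:**
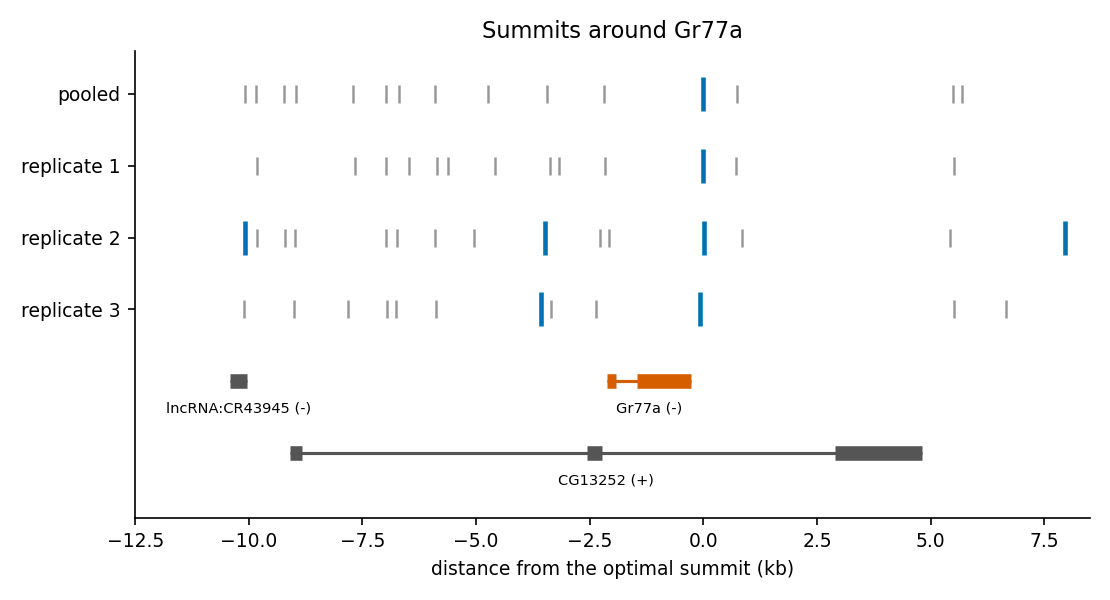
Summits around Gr77a by distance from its optimal summit (kb, horizontal axis), in the pooled list and in replicates 1 to 3; long blue marks are summits within the 8998 strongest regions of a list, short grey marks weaker ones, and boxes below are exons of Gr77a (orange) and of its neighbours (grey) with the strand in brackets. The blue mark at 0 is present in every row, and it is flanked by many grey marks along CG13252. Replicates 2 and 3 each have a further blue mark inside CG13252, at -3474 bp (rank 8521) and -3568 bp (rank 8334).

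Just outside the 500 bp window were 3 receptors whose nearest optimal summit lay at the promoter of a neighbouring gene. For Or88a, a receptor of trichoid sensilla that respond to fly odours, the summit was 734 bp away, ranked 5986 and lay 390 bp from the TSS of CG12402. Gr32a, a receptor for bitter compounds and for a pheromone that inhibits courtship between males, had a summit 743 bp away that ranked 1610 and lay 210 bp from the TSS of Idua. The summit nearest to Or9a was 965 bp away, ranked 8029 and lay 95 bp from the TSS of Neb-cGP. Replicates 1, 2 and 3 ranked the region at Or9a 5541, 15998 and 9338, so 1 of 3 top lists held it, while the regions at Or88a and Gr32a were in all 3 top lists. Gr77a was the only receptor inside the window.

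Over all receptors, the nearest optimal summit lay at the promoter of another gene for 45 of 120 (37.5%). The same share was not computed over all genes, so 37.5% cannot be called high or low. Together the 120 genes had 85 distinct nearest summits, since genes of a cluster often share one. Orco (FBgn0037324, 3R, 5407183 to 5412406, minus strand), the coreceptor gene, had 2 TSSs. Its nearest optimal summit was 6311 bp from a TSS and 23 bp from that of CG2663, and ranked 8937. The nearest pooled summit to Orco was 830 bp from a TSS.

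The other 7 receptors with a pooled summit at the promoter were all below the optimal threshold, and none of these summits reached a q-value of 0.01. The best ranks belonged to Or67a (13384, and a second summit at 16012), Gr93a (16450), Or65b (19538), Gr97a (19684) and Or65a (24139). Gr22e (27787) and Or67c (28531) had the lowest. At Or67a the region of rank 13384 was listed in replicates 1 and 2, at ranks 12352 and 19487. The region of rank 16012 was listed in all 3, at 28571, 18141 and 12359. The Gr93a region was listed in replicates 2 and 3 at ranks 27828 and 12504. For Gr97a the ranks were 14608 in replicate 1 and 14832 in replicate 3, and its summit was shared with CG5521, whose TSS lay 68 bp away against 377 bp for Gr97a. The replicates thus differed widely for the same weak region, and none of these ranks was inside a top list.

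Summits in receptor gene bodies were weak too. Of the 9 receptors with one, Or67a and Gr93a had the promoter summits just described inside the gene. All 7 regions with a summit in a receptor gene but not at its promoter ranked below 20000 in the pooled list. They lay in Or82a (rank 20246), Or67d (21118), Gr89a (21475), Or65b (21809), Gr39b (22550), Gr93d (22551) and Or92a (27347). At Gr89a, an optimal summit of rank 2840, in the top lists of all 3 replicates, lay 194 bp beyond the end of the gene, and in replicates 1 and 2 its region also covered the body summit. Or67d encodes the receptor for the male pheromone cis-vaccenyl acetate, and Or92a that for butanedione, an odour of fermenting fruit. The summit in Gr93d also lay in an exon of asRNA:CR44087, an antisense RNA.

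Optimal summits were also farther from receptor genes than from other genes. The median distance from a TSS to the nearest optimal summit was 12365 bp for receptors (quartiles 5838 and 29263 bp). It was 5084 bp for all genes and 5901 bp for genes with 1 TSS in the same length range. Over the 432 other genes whose model begins at the first coding base it was 9162 bp, closer to the receptors. The top lists gave receptor medians of 12311, 12463 and 12196 bp (mean 12323 bp ± 134, SD, n = 3), and 4782 bp ± 348 for all genes. Among genes without an optimal promoter summit the medians also stood apart, with values of 12419 bp over 119 receptors and 8138 bp over all such genes. Over all genes of each family, the order of Or and Gr depended on the part of the distribution. The upper quartile was 25638 bp for Or and 37966 bp for Gr genes. No optimal summit lay within 50 kb of 4 Or genes (6.67%) and 9 Gr genes (15.0%). The Or median was 13770 bp and the Gr median 10192 bp. In the top lists these medians were 13741 bp ± 683 and 10569 bp ± 986 (SD, n = 3), and the Or median was the larger in each of the 3.

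More than 10 kb separated 70 receptors (58.3%) from any optimal summit, against 32.8% of all genes. For 13 (10.8%) the distance was over 50 kb, against 4.53%. Within 1000 bp lay 4 receptors, against 27.1% of all genes. The farthest receptor was Gr92a, 84897 bp from the nearest optimal summit.

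**Figure D3:**
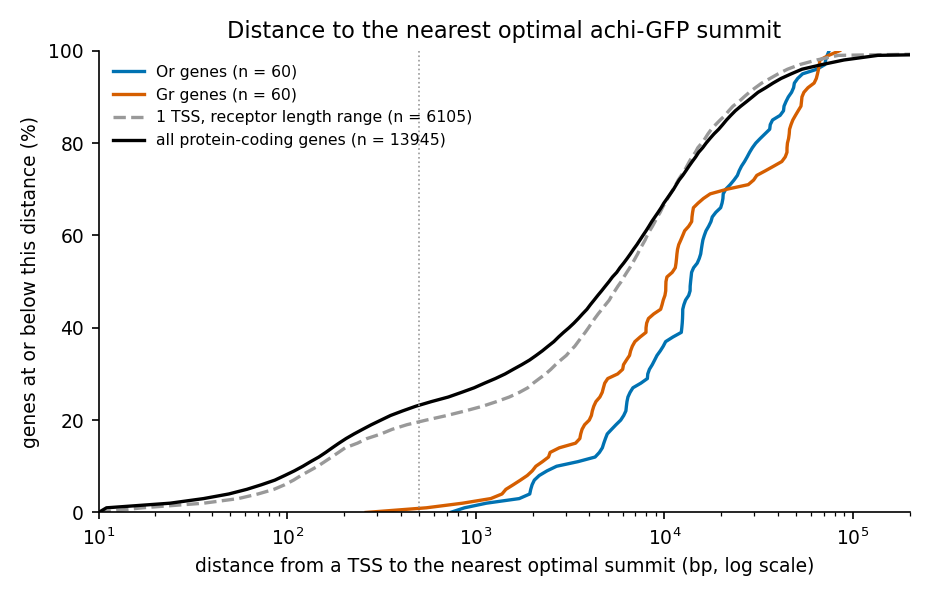
Cumulative share of genes (percent, vertical axis) by distance from a TSS to the nearest optimal summit (bp, log scale) for Or genes (blue), Gr genes (orange), genes with 1 TSS in the receptor length range (dashed grey) and all protein-coding genes (black); the dotted line marks 500 bp and distances under 10 bp are drawn at 10 bp. At 500 bp the black curve has reached 23.2% while the receptor curves lie near 0.

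Compared with all genes, the shortage was greatest next to the gene start and faded with distance. From 0 to 500 bp on either side, receptors had 0.00833 optimal summits per kb and all genes 0.222. Between 20000 and 50000 bp the densities were 0.0671 and 0.0807. Pooled summits showed the same order, with 0.0750 per kb at receptors and 0.453 at all genes from 0 to 500 bp, and 0.246 and 0.25 between 20000 and 50000 bp. Genes with 1 TSS in the same length range had 0.392 pooled summits per kb from 0 to 500 bp. From 500 to 2000 bp they were close to the receptors in pooled summits. From 500 to 1000 bp receptors had 0.108 and this class 0.12, and from 1000 to 2000 bp 0.142 and 0.136. In optimal summits receptors stayed below this class there. From 500 to 1000 bp they had 0.025 per kb against 0.041, and from 1000 to 2000 bp 0.0292 against 0.0491. These receptor values rest on 3 and 7 optimal summits. The families differed in optimal summits at middle distances: from 5000 to 10000 bp, Or genes had 0.0300 per kb and Gr genes 0.0867, against 0.0792 for all genes. Neighbouring windows of clustered genes overlap, and the Gr value includes the summits around the Gr93 genes described next.

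**Figure D4:**
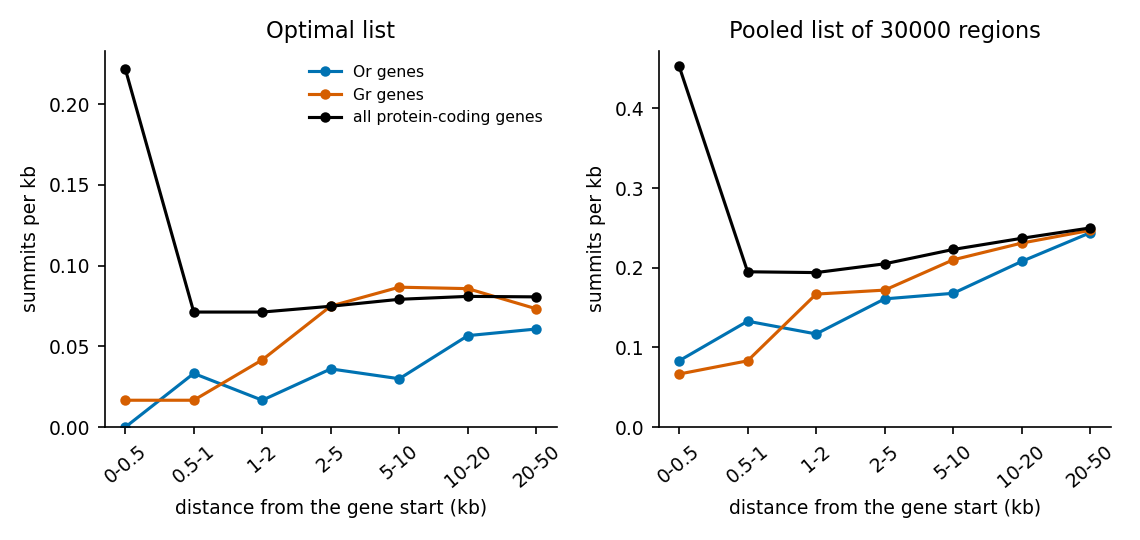
Optimal summits (left) and pooled summits (right) per kb of sequence, vertical axis from 0, by distance from the gene start on both sides (kb, horizontal axis) for Or genes (blue), Gr genes (orange) and all protein-coding genes (black). All genes peak in the first 0.5 kb, at 0.222 and 0.453 per kb, where both receptor families are at their lowest.

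The Gr93 genes, in contrast, lay among many summits. Gr93a (FBgn0041229, 3R, 21832503 to 21834013, plus strand) had 15 optimal summits within 10 kb of its start, the largest count of any protein-coding gene, where the median gene had 1. This locus was singled out after its values were seen. Replicates 1, 2 and 3 had 12, 14 and 12 top-list summits there, and 1, 0 and 0 genes had more. When optimal summits up to 500 bp apart were counted once, Gr93a had 11, still the highest count, which 7 genes including Gr93a then shared. Yet none of these summits lay at the promoter or in the body of Gr93a, Gr93b, Gr93c or Gr93d. The nearest were 1945, 2096, 3596 and 2504 bp from the starts of these genes.

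Across the locus and 10 kb to each side there were 19 optimal summits, ranked from 598 to 8876. The top lists of replicates 1, 2 and 3 held 16, 19 and 17 there. A single summit lay at a protein-coding promoter, that of glec. No summit of the 19 had TGACAG or TATCGATA within 100 bp, 7 had TATAAA, and none of the windows of 100 bp on each side held a 32-base word found elsewhere in the genome. The words were not counted around the other optimal summits, so these counts cannot be called particular to the locus. The strongest of the 19 summits, 2504 bp from the start of Gr93d, is shown with TATAAA in capitals. The sequence is from the RefSeq dm6 genome, chr3R:21849063-21849263, plus strand.
Peak of rank 598 near Gr93d: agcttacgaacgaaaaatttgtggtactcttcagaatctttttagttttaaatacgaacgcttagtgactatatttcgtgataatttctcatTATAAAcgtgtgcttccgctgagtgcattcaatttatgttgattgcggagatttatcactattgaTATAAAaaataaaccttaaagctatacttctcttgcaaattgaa

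**Figure D5:**
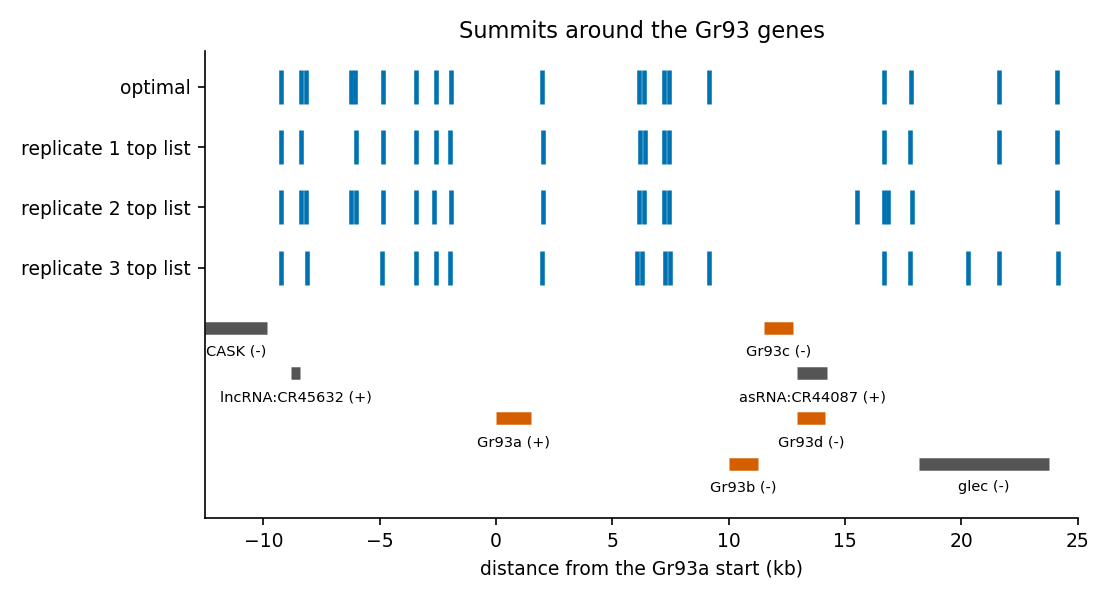
Optimal summits and replicate top-list summits (blue marks, rows) around the Gr93 genes by distance from the Gr93a start (kb, horizontal axis); boxes below are whole genes, Gr93 genes in orange and others in grey, with the strand in brackets. The 15 optimal summits within 10 kb of Gr93a lie on both sides of it, and no row has a mark inside a Gr93 gene.

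No receptor cluster held an optimal summit between its ends. Stretches of like length elsewhere were not counted, so this cannot be called unusual, and it partly repeats the gene body count. With gaps of at most 5000 bp, 50 receptors fell into 18 clusters of 2 or more genes. The largest held the 6 Gr64 genes, which encode sugar receptors, over 10807 bp of 3L. No optimal and no pooled summit lay inside it, and the nearest optimal summits were 9813 bp to the left and 2863 bp to the right. The cluster of 5 Gr22 genes on 2L, 10856 bp long, was also without a summit inside, and its nearest optimal summits were 45783 and 43015 bp away. The Or65 cluster of 3 genes held 3 pooled and 0 optimal summits. Clustered receptors had a median distance of 11462 bp and single ones 13255 bp. Of the 8 receptors with a pooled promoter summit, 3 were clustered and 5 were not.

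Genes next to receptors were bound more often than the receptors. Within 10 kb of a receptor TSS there were 263 other protein-coding genes, and 47 of them had an optimal promoter summit (17.9%, Wilson 95% interval 13.7% to 23.0%). In the top lists this share was 21.3%, 18.3% and 16.7%. The nearest other gene was bound for 18 of the 120 receptors (15%), against 25.2% when the same was counted for every gene. That neighbour was also farther off, at a median of 3702 bp between TSSs against 1375 bp over all genes. A receptor lay wholly inside a gene that is no receptor in 16 cases, 14 of them on the opposite strand. The host had an optimal promoter summit in 4 of the 16 cases and an optimal summit in its body in 6. Over all genes these shares were 23.2% and 16.3%, and host length was not taken into account. CG43795 was counted for both Or59b and Or59c, and Nha2 for both Or94a and Or94b.

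The share of receptor promoters with the achi core word was near that of all promoters. From 250 bases before to 50 bases after the gene start, TGACAG or its complement CTGTCA was present in 15 of 120 receptors (12.5%, Wilson 95% interval 7.72% to 19.6%), against 11.8% of all protein-coding genes. Among those with the word were Gr64b, Gr64c, Gr64d, Gr64e, Gr68a, Or35a and Or92a, none of which had a pooled promoter summit, and Or67a, which had. Gr64b and Gr64c share a gene start, and the windows of Gr64d and Gr64e hold the same copy of the word. The word's surroundings, 30 bases of RefSeq dm6 sequence on the strand of the gene, are shown with the word or its complement in capitals. Gr64b (chr3L:4028542-4028571, plus) encodes a sugar receptor, Gr68a (chr3L:11751186-11751215, plus) a receptor linked to male courtship, and Or35a (chr2L:15623627-15623656, minus) an odorant receptor.
Gr64b: gtcagctgaatgTGACAGgcgccactatta
Gr68a: atttgctgtttaTGACAGctaattaaaggt
Or35a: aaagttgagaaaCTGTCAtcgtctgtgctc

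TATCGATA, the DNA replication-related element, lay in 1 receptor promoter (0.833%, Wilson 95% interval 0.147% to 4.57%) and in 9.36% of all promoters. The families differed in TATAAA, the consensus of the TATA box. On either strand it was found in 47 of 60 Or promoters (78.3%, Wilson 95% interval 66.4% to 86.9%), in 18 of 60 Gr promoters (30.0%, 19.9% to 42.5%) and in 45.8% of all promoters. On the strand of the gene and within the last 100 bases before its start it was present in 31 Or genes (51.7%), in 4 Gr genes (6.67%) and in 15.2% of all genes. Models that begin at the first coding base showed the same order, with 60.5% of 43 Or genes, 2.5% of 40 Gr genes and 23.7% of all 515 such genes. Models that begin before it gave a smaller difference, with 29.4% of 17 Or genes and 15.0% of 20 Gr genes. The Gr share there was near the 14.9% of all such genes. Or10a and Gr10a share a gene start, so the same copy of TATAAA was counted in both families. Gr10a is among only 3 Gr genes behind the 15.0%. A match is a sequence and not a measured site of binding. Base composition was similar, with a median of 39.8% G and C in Or, 39.5% in Gr and 38.0% in all promoters.

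The last 100 bases before the gene start are shown for 4 Or genes that had a weak pooled summit and hold the word, and for 2 Gr genes without it, with TATAAA in capitals. They are RefSeq dm6 sequence on the strand of each gene. Or65a (chr3L:6320511-6320610, plus) and Or67c (chr3L:10244707-10244806, minus) had their pooled summit upstream of the start. Or67d (chr3L:10273104-10273203, plus) and Or82a (chr3R:4256872-4256971, plus) had it in the gene body. Gr66a (chr3L:8306981-8307080, minus) is a receptor gene of bitter neurons and Gr63a (chr3L:3896604-3896703, minus) encodes a part of the carbon dioxide receptor.
Or65a: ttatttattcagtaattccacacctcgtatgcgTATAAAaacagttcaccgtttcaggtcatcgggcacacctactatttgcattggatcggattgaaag
Or67c: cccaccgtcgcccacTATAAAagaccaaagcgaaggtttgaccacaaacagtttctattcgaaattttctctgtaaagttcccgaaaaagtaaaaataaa
Or67d: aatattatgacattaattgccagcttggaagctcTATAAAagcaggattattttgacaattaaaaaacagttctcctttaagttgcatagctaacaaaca
Or82a: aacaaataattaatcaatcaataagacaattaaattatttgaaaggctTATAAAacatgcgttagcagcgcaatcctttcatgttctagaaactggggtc
Gr66a: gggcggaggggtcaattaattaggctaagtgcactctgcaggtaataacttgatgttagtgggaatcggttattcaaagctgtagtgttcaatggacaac
Gr63a: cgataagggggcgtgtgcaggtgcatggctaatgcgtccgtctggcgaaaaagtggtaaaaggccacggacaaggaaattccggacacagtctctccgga

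Repeated sequence, which can hide peaks when reads match several places, was rare at receptors. Within 500 bp of the gene start, 114 of 120 receptors (95.0%) had no 32-base word that occurs elsewhere in the genome, against 90.7% of all genes. The exceptions with a large share were Or19a and Or19b, near-identical copies, at 83.7% each, and how reads there were placed is not stated.

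By arm, the receptors of 3L lay closest to optimal summits, with a median of 6855 bp over 22 genes, and those of 2L farthest, with 18172 bp over 27 genes. The medians were 9097 bp on X, 12290 bp on 3R and 12615 bp on 2R. Of the 8 receptors with a pooled promoter summit, 5 were on 3L, 2 on 3R and 1 on 2L, with none on 2R or X. In all arms the receptor median was above that of all genes, which ran from 4397 bp on X to 5831 bp on 2L for these 5 arms.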

How the data were processed

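The authors' peak lists were used, not reads. Per the deposited file descriptions, the authors called replicate and pooled regions from alignments against 1 shared control. They derived the optimal list by thresholding the irreproducible discovery rate (IDR). Aligner and peak caller: not given in the sources used here. The deposited signal is the authors' value per region, used to rank regions within a list. The deposited -log10 q-value saturates at 4.15, which 7035 of 8998 optimal peaks share. A fault of the shared control would appear in all 3 replicates, and precipitates of untagged flies were not analysed here. Whether replicates share a day is not stated. In the optimal list, 46 intervals occur a second time with a different summit, and all summits were kept.

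Coordinates are dm6. Genes and TSSs came from Ensembl release 115, sequence from the RefSeq dm6 genome. Lists in dm3 were not used. The gene body runs from gene start to end. A replicate's rank for a region is that of its strongest region covering the summit. Words were searched on both strands. TATAAA and TGACAG may overlap other words, and no match says only that these letters are not in the window. Densities, counts within 10 kb and sequence windows used 1 TSS a gene, its 5' end. Wilson intervals are 95%, and the limit for a count of 0 takes 3 counts. Both cover counting error only. No set tests were made, because genes are not replicates. Members, lists and words were chosen with earlier results of these data known. Named genes were all receptors with an optimal summit, the 6 best and 2 worst pooled promoter ranks, those nearest to the 500 bp window, Orco, the farthest receptor, the largest cluster and up to 6 bound genes of each other list. The body regions, the Gr93 locus, the sequence examples and the start-codon comparison were added after the values were seen. Of the neuron markers, Syt-alpha matched no gene name. Functions were tested on simulated data with summits planted at known places. Alternatives changed the window, the TSS or gene assignment, the list and the threshold. Python 3.11.15, numpy 2.4.6, pandas 2.3.3, scipy 1.17.1 and matplotlib 3.10.9 were used.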

Additional observations from a re-analysis of the deposited data

How the results depend on the processing

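The count of receptors with an optimal promoter summit was 0 with a 200 bp window, 4 with a 1000 bp window, 0 with the 4499 strongest optimal peaks, and 0 with only gene models that start before the first coding base, a setting chosen after seeing the data. It was 1 in the other 8 settings. The pooled promoter count was 2 with 200 bp, 17 with 1000 bp, 3 with only those gene models and 1 with regions at a q-value up to 0.01. Over all genes, 200 bp and 1000 bp gave 15.7% and 27.1% for optimal and 28.2% and 44.0% for pooled summits. The 4499 strongest peaks gave 15.1% of all genes, and pooled regions up to a q-value of 0.01 gave 25.3%. With only those gene models the shares were 24.0% for optimal and 39.7% for pooled summits. With 500 bp added to each side of the gene, the body counts were 3 for optimal and 16 for pooled summits, against 31.0% and 47.0% of all genes. Up to a q-value of 0.01 the pooled body count was 0, against 17.8% of all genes. The median distance was 22173 bp with the 4499 strongest peaks and 12196 bp with the top list of replicate 3. Over all genes these medians were 9395 and 5072 bp. Leaving out each replicate in turn gave 1 receptor promoter and 0 bodies each time, against 19.1% to 19.9% and 14.2% to 14.3% of all genes. The receptor medians then ran from 13790 to 13960 bp and those of all genes from 6509 to 6527 bp, where fewer peaks remained. TGACAG was held by 30.0% of receptors and 27.6% of all genes in the wider window of 500 bp either side of the gene start. By family, this window held it in 18.3% of Or genes (Wilson 95% interval 10.6% to 29.9%) and 41.7% of Gr genes (30.1% to 54.3%). No paired analysis was possible because there is a single group. Unknown read depth limits what can be said of weak regions.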

Other observations

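Other chemosensory gene families also had few optimal promoter summits. An optimal summit at a promoter was found for 0 of 60 ionotropic receptor (Ir) genes, 0 of 29 pickpocket channel genes, 0 of 20 CheA and CheB genes and 0 of 2 Snmp genes. Each count of 0 stands beside 23.2% of all protein-coding genes. In the lists of 20 and 2 genes a count of 0 sets no low limit. Of 52 odorant-binding protein genes, 2 were bound (3.85%): Obp83g, with a summit 258 bp from its TSS at rank 1812, and Obp99b, at 260 bp and rank 2990. The top lists of replicates 1, 2 and 3 held 1, 1 and 0 Ir promoters and 2, 2 and 4 odorant-binding protein promoters, and none of the other 3 families. The pooled list had a promoter summit at 4 Ir genes (6.67%), 10 odorant-binding protein genes (19.2%) and 2 pickpocket genes (6.9%). It also had one at 3 CheA and CheB genes (15.0%) and both Snmp genes. The Or and Gr genes together gave 6.67% and all genes 38.6%, so the families were less alike in this list. Median distances to the nearest optimal summit were 9933 bp (Ir), 10621 bp (odorant-binding protein), 10759 bp (pickpocket) and 8198 bp (CheA and CheB). For the 2 Snmp genes the median was 19381 bp, and for the Or and Gr genes 12365 bp.

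Of 25 genes reported to regulate the identity or receptor choice of olfactory neurons, 8 had an optimal promoter summit (32.0%) and 12 had one in the body (48.0%), against 23.2% and 16.3% of all genes. The top lists gave 8, 10 and 9 at promoters. The best ranks were at chn (230), Alh (1627), Xbp1 (1694), Eip93F (1832), mip130 (3800) and sd (5978). The summits at Alh, mip130 and sd were shared with CG10098, Edem1 and PGRP-LE. These regulators have a median length of 20124 bp, against 1445 bp for the receptors, and most of them act in many tissues. The list is small and some of its genes have several TSSs, with 7 at sd. Their promoter share of 32.0% therefore cannot be called high. Of 6 neuron markers, elav (rank 266) and futsch (rank 5875) were bound, and of 3 glia markers moody (rank 680) and nrv2 (rank 7086) (33.3% and 66.7%, against 23.2% of all genes).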
